A study of Mus musculus with 12 samples.

Results

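Cholesterol synthesis and its control by the sterol regulatory element-binding proteins (SREBPs) were followed through 32 listed genes, found by their symbols among the 23362 genes analysed. They comprise 8 enzymes that lead from acetyl-CoA to the isoprenoid diphosphates, 9 enzymes that turn these into squalene and sterols, 7 genes of the SREBP factors and their processing, and 8 genes of sterol transport, storage and efflux. The 12 libraries were polyA RNA-seq of mouse C57BL/6 cells in 4 groups of 3. Granulocyte-macrophage progenitors (GMP) were sorted straight into lysis reagent, either wild type (GMP WT) or Xbp1-deficient (GMP KO). GATA2-GMP WT and GATA2-GMP KO were GMP of the same genotypes that had been sorted, transduced with GATA2, sorted again and cultured for 48 h, and the study used them as a later stage of eosinophil development. The GATA2-GMP libraries were preceded by a low-input amplification kit that the GMP libraries did not pass through, and no culture with an empty vector was analysed here. Stage, GATA2, transduction, culture and kit therefore cannot be told apart, and a comparison of GMP with GATA2-GMP is called a stage comparison below only as a short name. The age of the animals, the allele that removes Xbp1 and whether libraries came from separate animals are not given in the sources used here, so p-values measure the spread between libraries, which may be technical.

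Cells make cholesterol from acetyl-CoA through mevalonate, isoprenoid diphosphates, squalene and lanosterol. When sterols run low in the membrane of the endoplasmic reticulum (ER), SCAP carries SREBP from the ER to the Golgi, where a pair of proteases release the part that enters the nucleus and switches on the enzyme genes. When sterols are plentiful, the INSIG proteins hold SCAP and SREBP in the ER, and liver X receptors switch on the transporters that export cholesterol. XBP1 acts in the unfolded protein response as a transcription factor for genes of the secretory pathway, and in liver it is known for a role in lipid synthesis. Eosinophil precursors fill granules with secreted proteins and carry a large ER.

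Total counts in genes ranged from 8219366 in GMP KO 3 to 33640911 in GMP KO 2, and the members took 0.165% to 0.168% of them in GMP and 0.201% to 0.304% in GATA2-GMP. Levels below are read counts per 1000000 counts (CPM), scaled over all 12 libraries by the trimmed mean of M values, and the 3 values of a group are given in the order of replicates 1, 2 and 3. Xbp1 itself stood at 131, 133 and 153 CPM in GMP WT, 89.7, 55.9 and 56.8 in GMP KO, 381, 269 and 197 in GATA2-GMP WT and 99.8, 121 and 128 in GATA2-GMP KO. The Xbp1 level was lower in all KO libraries than in the WT libraries of the same stage but did not pass the test in either (adjusted p = 0.0919 in GMP and 0.0959 in GATA2-GMP), and reads outside a deleted part would not check the label. Summed over 10 GMP markers, the level was 22135 to 28367 CPM in GMP and 3927 to 6822 CPM in GATA2-GMP, and summed over 12 eosinophil markers it was 172 to 747 CPM in GMP and 56347 to 207589 CPM in GATA2-GMP. Of the GMP markers, 8 were lower in GATA2-GMP in both genotypes, and Fcgr3 and Fcgr2b were higher. Fcgr3 stood at 141 to 188 CPM in GMP and 1143 to 2286 in GATA2-GMP, and Fcgr2b at 78.8 to 92.4 and 456 to 802. The 10 erythroid and megakaryocyte markers summed to 14.8 to 35.4 CPM in GMP and 26.1 to 56.1 CPM in GATA2-GMP. Among them the haemoglobin genes Hba-a1, Hba-a2 and Hbb-b2 were at 0 reads in every library. Records without a unique alignment, 40.34% to 54.96% of a library, were not counted to genes. These zeros therefore do not show that the transcripts were absent. The 10 mast cell and basophil markers summed to 267 to 349 CPM in GMP and 4389 to 12603 CPM in GATA2-GMP. The 9 macrophage markers found summed to 239 to 372 CPM in GMP and 724 to 1410 CPM in GATA2-GMP. Hmgcs1, the cytosolic HMG-CoA synthase, was listed at 0 reads in all 12 libraries, and no gene of that symbol stands in the GENCODE vM1 annotation used for positions, so no level of Hmgcs1 is read from these tables. The other 31 members passed the filter on low counts in every comparison.

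Insig1 was the member whose level differed most clearly with genotype: its mean level was 18.4 ± 3.52 CPM in GMP WT and 10.1 ± 1.14 CPM in GMP KO, and 140 ± 15.8 CPM in GATA2-GMP WT and 49.2 ± 10.2 CPM in GATA2-GMP KO (SD, n = 3). Insig1 encodes a sterol sensor that keeps SCAP and SREBP in the ER, and its own gene is a target of SREBP. Insig1 stood at 19.8, 14.4 and 21.0 CPM in GMP WT, 9.68, 9.21 and 11.4 in GMP KO, 156, 141 and 124 in GATA2-GMP WT and 41.7, 45.1 and 60.8 in GATA2-GMP KO. The KO libraries lay below every WT library of their stage. The difference is given as log2 of KO over WT. Its standard error (SE) was taken as its size divided by the square root of the F statistic of the test. The difference came to -0.91 (SE 0.15, adjusted p = 0.0101) for the GMP libraries and to -1.51 (SE 0.23, adjusted p = 0.0404) for the cultured ones. Adjusted p is from edgeR's quasi-likelihood test with Benjamini-Hochberg adjustment over all genes tested, and a gene is called below 0.05.

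The gene lies at chr5:28397952-28405201 on the plus strand of mm9, and the 250 bases before its start are shown with those of 3 other members whose levels carry the results: Cyp51, Srebf2 and Lss. Insig1 and Cyp51 stood lowest in KO relative to WT in GATA2-GMP, Srebf2 encodes the SREBP that drives sterol enzymes, and Lss is the enzyme whose level varied most among the GATA2-GMP WT libraries. The windows are from RefSeq on GRCm38.p6, read 5′ to 3′ on the gene's own strand, and capitals mark the letters of a CCAAT box (CCAAT, or ATTGG read from the other strand, with TGATTGG for the longer form in Lss), of an E-box (CACGTG in Insig1) and of the SREBP element (TCACCCCA in Srebf2).
Insig1, chr5:28071162-28071411, plus strand: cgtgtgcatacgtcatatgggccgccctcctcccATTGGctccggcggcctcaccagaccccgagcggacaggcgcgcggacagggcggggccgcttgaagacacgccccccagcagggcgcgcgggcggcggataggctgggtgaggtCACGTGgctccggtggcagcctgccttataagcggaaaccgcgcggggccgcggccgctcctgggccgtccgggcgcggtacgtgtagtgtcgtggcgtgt
Cyp51, chr5:4104698-4104947, minus strand: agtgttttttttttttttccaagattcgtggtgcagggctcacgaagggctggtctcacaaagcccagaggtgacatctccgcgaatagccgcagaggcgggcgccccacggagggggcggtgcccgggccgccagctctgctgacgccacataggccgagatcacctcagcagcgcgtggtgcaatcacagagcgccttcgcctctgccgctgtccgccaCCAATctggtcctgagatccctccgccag
Srebf2, chr15:82147019-82147268, plus strand: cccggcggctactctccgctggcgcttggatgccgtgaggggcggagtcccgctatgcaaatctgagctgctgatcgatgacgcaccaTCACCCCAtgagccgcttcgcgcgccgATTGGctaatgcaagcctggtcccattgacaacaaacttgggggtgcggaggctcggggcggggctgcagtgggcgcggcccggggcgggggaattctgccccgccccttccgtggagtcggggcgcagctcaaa
Lss, chr10:76531355-76531604, plus strand: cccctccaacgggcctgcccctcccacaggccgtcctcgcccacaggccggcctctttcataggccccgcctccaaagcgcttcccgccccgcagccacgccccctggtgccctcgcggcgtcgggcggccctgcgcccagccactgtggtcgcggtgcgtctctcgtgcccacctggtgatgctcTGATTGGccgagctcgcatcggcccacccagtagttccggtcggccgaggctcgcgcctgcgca
The first letter of the CCAAT box lay 29 bases before the start in Cyp51, that of TGATTGG 64 bases before it in Lss, and that of CACGTG 101 bases before it in Insig1. A window of this kind was at hand for 26 members, and both strands were searched for 5 motifs chosen with these sequences in view. CCAAT was found in 19 of the 26 (73.1%, against 37.5% of all genes with a window), and its longer form CCAATCA, which contains it, in 9 (34.6% against 8.38%). CACGTG was found in 5 (19.2% against 6.86%), namely Hsd17b7, Dhcr7, Scap, Insig1 and Abca1. TCACNCCA, where N is any base, was found in 2 (7.69% against 4.2%), Hmgcs1 and Srebf2. GACGTGG, the core letters of an XBP1 site, was found in none of the 26 (2.23% of all genes), which says only that these letters are not in these windows.

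In GMP 2 of 31 members were called between genotypes, both lower in KO and none higher. Of all 12002 genes tested, 3.17% were called, 2.52% lower and 0.658% higher (2.12% and 1.20% when scaled to library totals). Besides Insig1, the called member was Srebf2, which encodes the SREBP that acts mainly on sterol genes. Srebf2 stood at 86.8, 84.8 and 97.3 CPM in GMP WT, 74.5, 65.7 and 68.8 in GMP KO, 11.4, 12.4 and 12.2 in GATA2-GMP WT and 14.2, 10.8 and 9.01 in GATA2-GMP KO. In GMP the KO libraries lay below all WT libraries, with a log2 difference of -0.38 (SE 0.075, adjusted p = 0.0145). In GATA2-GMP the Srebf2 levels of the genotypes overlapped, with a difference of -0.08 (SE 0.27, adjusted p = 0.919).
Cyp51, the lanosterol demethylase, came next among the enzymes and stood at 25.0, 24.8 and 24.4 CPM in GMP WT, 16.3, 20.7 and 21.2 in GMP KO, 312, 280 and 297 in GATA2-GMP WT and 144, 130 and 133 in GATA2-GMP KO. Its levels did not overlap between genotypes at either stage. In GMP the log2 difference came to -0.38 (SE 0.10, adjusted p = 0.0734). In GATA2-GMP it came to -1.12 (SE 0.20, adjusted p = 0.0572), outside the threshold as well. Of 13 alternative fits, 3 called Cyp51 lower in GMP and 5 in GATA2-GMP. DESeq2 did so at both stages (adjusted p = 0.0399 and 4.61e-05), where it called 365 and 263 genes lower. So did edgeR with no low-count filter (0.0180 and 0.0107), where 339 and 170 genes were called lower.
Stard4, a carrier that moves sterol through the cytosol and is a target of SREBP, stood at 31.0, 25.2 and 27.0 CPM in GMP WT, 23.9, 21.8 and 22.6 in GMP KO, 83.1, 71.0 and 90.8 in GATA2-GMP WT and 60.4, 53.6 and 69.4 in GATA2-GMP KO. It too was lower in all KO than in all WT libraries of each stage, but neither difference passed the threshold. In GMP the log2 difference was -0.30 (SE 0.088, adjusted p = 0.105), and in GATA2-GMP it was -0.41 (SE 0.21, adjusted p = 0.405).
In GMP, libraries with the same replicate number deviated together from their group means. With the replicate number as a block, 4 members were called lower, Insig1, Srebf2, Cyp51 (adjusted p = 0.00774) and Stard4 (adjusted p = 0.0106), where 4.73% of all genes were called lower and 3.30% higher.
The enzymes had close summed levels in both genotypes of GMP. The summed level of the 17 enzymes was 277 to 290 CPM in GMP WT and 268 to 279 CPM in GMP KO. Their log2 differences ran from -0.38 in Cyp51 to 0.15 in Mvk, with a median of -0.02 where that of all genes was 0.01. Sqle, the squalene epoxidase, differed by -0.13 (SE 0.076, adjusted p = 0.456). Srebf1, whose product acts more on fatty acid genes, differed by 0.03 (SE 0.070, adjusted p = 0.874). The cholesterol exporters Abca1 and Abcg1 differed by -0.31 (SE 0.17, adjusted p = 0.421) and -0.08 (SE 0.13, adjusted p = 0.840).
Marker levels differed with genotype in GMP as well. The eosinophil marker sum was 172 to 366 CPM in GMP WT and 403 to 747 CPM in GMP KO, with no overlap. In that sum Prg2 stood at 31.4 to 184 CPM in WT and 220 to 462 CPM in KO. Epx stood at 13.0 to 41.9 CPM in WT and 58.3 to 121 CPM in KO. Of the 10 tested, 7 were above 0 and 3 below, with a median of 0.20, and none was called by edgeR. At an unadjusted p under 0.05, 2 were higher (6.78% of all genes), and DESeq2 called 1 higher. The GMP marker sum was 25783 to 28367 CPM in GMP WT and 22135 to 26257 CPM in GMP KO, with Elane, a granule protease, called lower (-1.18). Fcer1a, of mast cells and basophils, and Plk1, of dividing cells, were called higher (1.49 and 0.37), each the only call in its list. Of the 5 mast cell and basophil markers tested, 2 were above 0 and 3 below, with a median of -0.12. Their list summed to 311 to 349 CPM in WT and 267 to 321 CPM in KO. Of the 12 markers of dividing cells, 8 were above 0 and 4 below, with a median of 0.04. They summed to 3807 to 4266 CPM in WT and 3993 to 4414 CPM in KO. The part of these markers in the lower Insig1 and Srebf2 levels was not tested.
The calls in GMP depended on single libraries and on the fit. Srebf2 was not called without GMP WT 3 (adjusted p = 0.0606) or GMP KO 3 (0.0554), Insig1 not without GMP KO 1 (0.0531), and neither in 1 fit over all 12 libraries (1.0 and 0.177) or with the transcript length index described below as a covariate (0.0687 and 0.0504), where 0.133% and 2.15% of all genes were called.

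**Figure D1:**
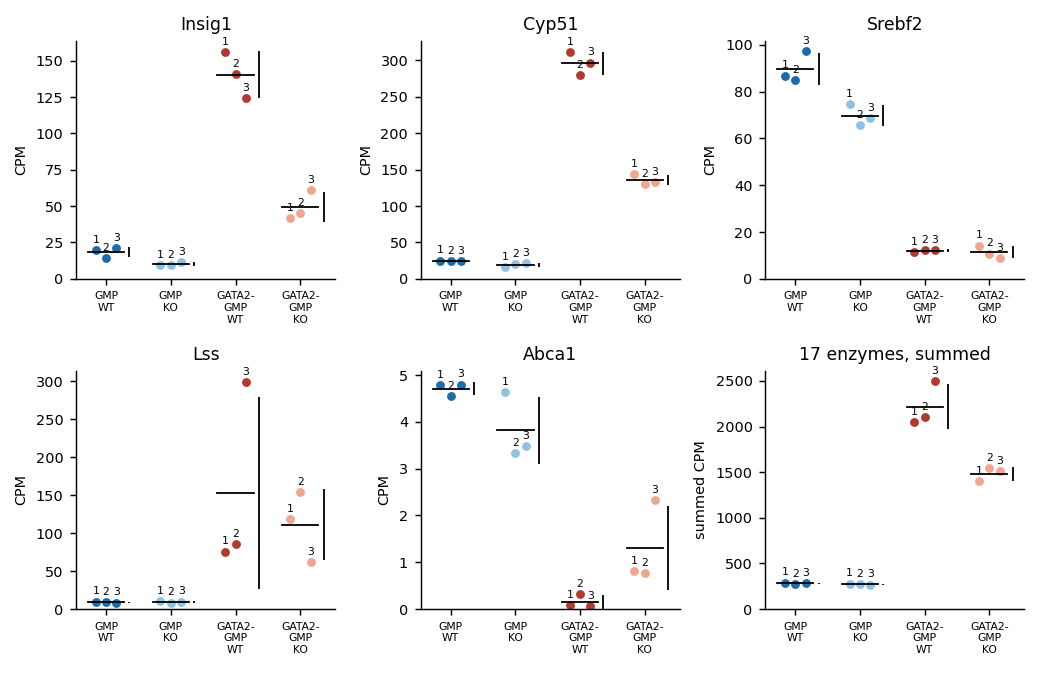
Level in CPM (linear axis from 0) of Insig1, Cyp51, Srebf2, Lss and Abca1, and of the 17 enzymes summed (Hmgcs1 at 0), in each library, numbered by replicate. Horizontal lines are group means and vertical bars 1 SD on either side (n = 3). Insig1 and Cyp51 are lower in all KO than in all WT libraries of each stage, while Lss spans 75.6 to 299 CPM within GATA2-GMP WT.

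In GATA2-GMP the summed level of the enzymes was lower in every KO library than in every WT library, while Insig1 was the only member called. Of 11699 genes tested, 0.376% were called, 0.274% lower and 0.103% higher (0.171% and 0.145% when scaled to library totals). The summed level of the 17 enzymes was 2045, 2104 and 2498 CPM in the WT libraries, against 1398, 1543 and 1510 CPM in the KO libraries. The ranges did not overlap. As a share of all counts the enzymes took 0.141% to 0.190% in WT, against 0.113% to 0.131% in KO.
Log2 differences were below 0 in 15 of 16 enzymes tested under each scaling tried, and in 13 of 16 without GATA2-GMP WT 3, when Lss and Dhcr7 turned. With all 6 libraries 50.4% of all genes were below 0, and the median of the enzymes was -0.56 where that of all genes was -0.00. The exception was Ggps1, which makes the diphosphate used to prenylate proteins, on a branch away from sterols. Over all 31 members, 23 were below 0 and 8 above. In 12 members every KO library was below every WT library (12.3% of all genes), and in 5 every KO library was above (10.2% of all genes).
Among the enzymes, the log2 difference ran from -1.12 (SE 0.20, adjusted p = 0.0572) in Cyp51 to 0.22 (SE 0.21, adjusted p = 0.683) in Ggps1. Sqle differed by -0.35 (SE 0.20, adjusted p = 0.456), with no overlap. Lss, the enzyme that closes the ring of lanosterol, stood at 75.6, 85.2 and 299 CPM in the cultured WT libraries and 118, 154 and 61.8 CPM in the KO ones. Its difference of -0.46 (SE 0.53, adjusted p = 0.742) rested on GATA2-GMP WT 3 and turned to 0.47 without that library.
Among the SREBP control genes, 5 of 7 were below 0 and 2 above. Scap, the escort of SREBP out of the ER, stood at 21.7, 22.8 and 16.2 CPM in the cultured WT libraries and 11.5, 10.9 and 10.4 CPM in the KO ones, lower in all KO libraries, with a difference of -0.88 (SE 0.25, adjusted p = 0.155). Srebf1 overlapped between genotypes, with a difference of -0.18 (SE 0.34, adjusted p = 0.846).
Among the transport, storage and efflux genes, 5 of 8 were above 0. Soat1, which esterifies cholesterol for storage in droplets, stood at 74.7, 92.0 and 122 CPM in the cultured WT libraries and 167, 136 and 159 CPM in the KO ones. All its KO libraries were higher, with a difference of 0.68 (SE 0.24, adjusted p = 0.233). Abca1, which exports cholesterol to lipid-poor apolipoprotein, had 1, 5 and 1 reads in GATA2-GMP WT and 14, 12 and 31 in GATA2-GMP KO. The ratio of KO to WT was 8.13, with a 95% counting interval of 3.70 to 21.1 that leaves out the spread between libraries, and the fitted log2 difference was 3.03 (SE 0.87, adjusted p = 0.162). Abcg1, which exports cholesterol to larger lipoproteins, stood at 27.1, 45.6 and 48.7 CPM in the cultured WT libraries and 65.3, 56.1 and 53.3 CPM in the KO ones, with a difference of 0.53 (SE 0.26, adjusted p = 0.392). None of these 3 passed the threshold, although none overlapped between genotypes.
Marker levels also differed with genotype. The 12 eosinophil markers summed to 136222 to 207589 CPM in WT, against 56347 to 68379 CPM in KO, with all 12 below 0 and 2 called lower by edgeR. At an unadjusted p under 0.05, 9 were lower (8.31% of all genes), and DESeq2 called 8 lower (2.03% of all genes). The 10 GMP markers summed to 5169 to 6822 CPM in WT, against 3927 to 4977 CPM in KO, with 8 of 9 tested below 0 and none called by edgeR (1 in each direction at an unadjusted p under 0.05, and with DESeq2). Both sums were lower in every KO library than in any WT library, as the enzyme sum was. None of the 9 GMP markers tested did so by itself, and Kit was higher in every KO library (113 to 200 CPM, against 28.5 to 100 CPM in WT). The 9 macrophage markers found summed to 724 to 1123 CPM in WT and 1025 to 1410 CPM in KO, most of it from Emr1 (333 to 800 CPM in WT, 371 to 578 CPM in KO) and Lyz2 (239 to 302 CPM in WT, 372 to 855 CPM in KO). In that list C1qa reached at most 0.292 CPM and Marco at most 0.192 CPM. Of its 6 genes tested, 5 were above 0 and none was called by edgeR. DESeq2 called 2 of them higher, and 2 were higher at an unadjusted p under 0.05 (6.59% of all genes). The 10 mast cell and basophil markers summed to 4389 to 12194 CPM in WT and 6746 to 12603 CPM in KO, most of it from Cpa3 (2530 to 8142 CPM in WT, 4751 to 9814 CPM in KO), and Mcpt1 reached at most 0.928 CPM. The part of these markers in the lower enzyme levels was not tested, and in bulk libraries fewer cells of a type and less RNA per cell cannot be told apart.

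**Figure D2:**
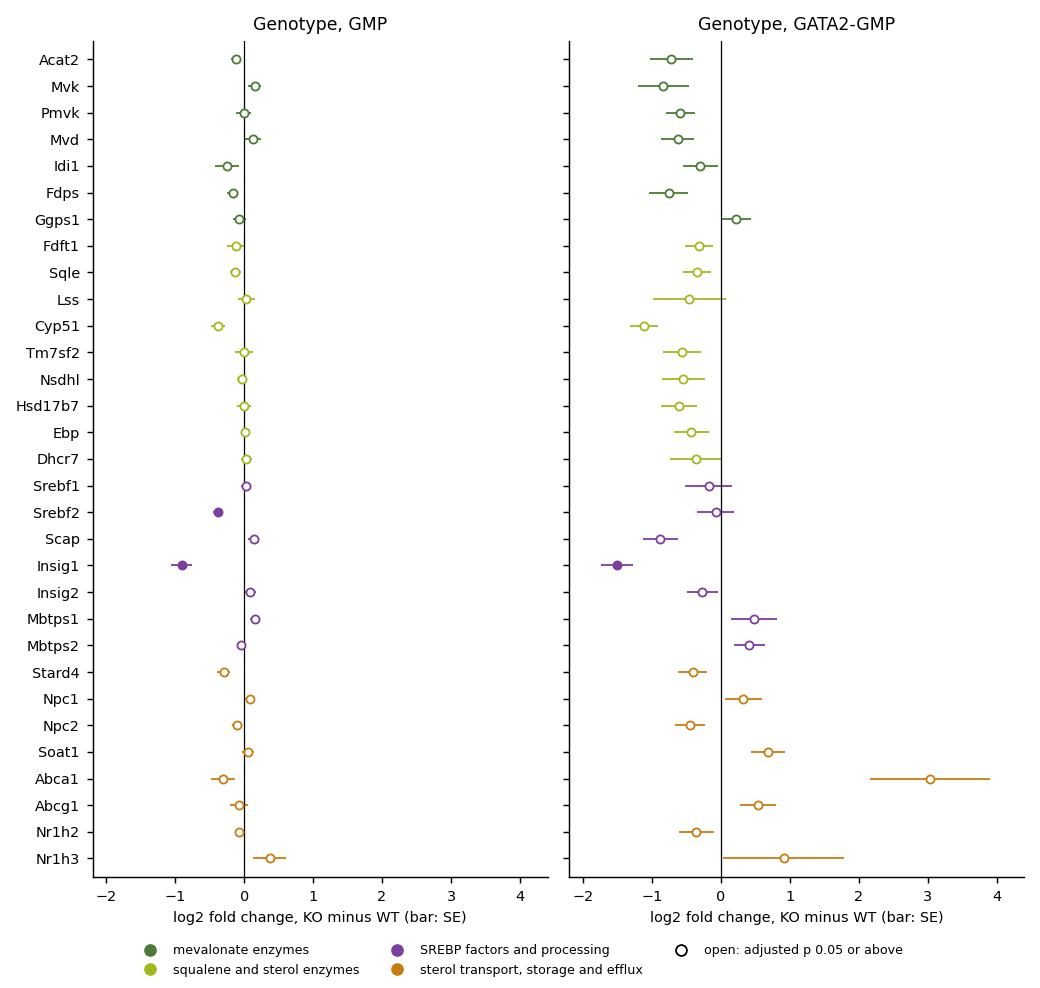
Log2 difference of KO over WT for the 31 tested members (points, bars 1 SE, n = 3 against 3) in GMP (left) and GATA2-GMP (right), coloured by role, filled where called. Filled points are Insig1 and Srebf2 on the left and Insig1 on the right, and on the right 15 of 16 enzymes lie below 0.

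The number of members called in GATA2-GMP changed with the libraries and the fit. Insig1 lost its call without WT 1 (adjusted p = 0.186), WT 2 (0.0828), KO 1 (0.266), KO 2 (0.114) or KO 3 (0.0710) of GATA2-GMP. Without GATA2-GMP WT 3 it was called lower together with Cyp51 (0.0189) and Mvk, and Soat1 was called higher (0.0458), where 4.38% of all genes were called.
The libraries of GATA2-GMP also differed in how short and long transcripts stood to each other. For each library an index was taken as the log2 level of the shortest of 4 equal bins of genes, with transcripts up to 1945 bases, less that of the longest bin, from 4428 bases. It was -1.74 to -1.60 in GMP, -0.31, -0.21 and -1.09 in GATA2-GMP WT 1, 2 and 3, and -0.71, -0.83 and 0.00 in GATA2-GMP KO 1, 2 and 3. WT 3 thus stood with KO 1 and KO 2, and KO 3 with WT 1 and WT 2.
With this index as a covariate, a fit added after the data had been seen, 13 members were called in GATA2-GMP, 11 lower (7.80% of all genes) and 2 higher (5.54% of all genes). The lower ones were Insig1 (-1.53, adjusted p = 5.15e-04), Cyp51 (-1.12, 8.16e-04), Nsdhl, Hsd17b7, Acat2, Pmvk, Scap, Ebp, Npc2, Mvd and Fdps, and the higher ones were Soat1 (0.71, 0.0242) and Abca1 (2.96, 0.0318).
A fit over all 12 libraries without the index called 9 members, Insig1, Cyp51, Scap, Fdps, Mvd, Pmvk and Npc2 lower (6.76% of all genes) and Soat1 and Abca1 higher (4.66% of all genes).

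Whether the genotype difference itself changed with stage was tested as an interaction over all 12 libraries, and no member was called, where 0.0859% of 12803 genes were, 0.0312% higher and 0.0547% lower (0.0625% and 0.0547% when scaled to library totals). At an unadjusted p under 0.05, 3 members were higher and 7 lower (5.96% and 8.95% of all genes), and DESeq2 called Abca1 higher (1.79% of all genes) and Cyp51 and Scap lower (4.47%). The log2 difference of the differences, GATA2-GMP less GMP, was -0.64 (SE 0.27, adjusted p = 0.287) for Insig1. A p above the threshold does not show that its genotype difference was the same at both stages. It was -0.78 (SE 0.19, adjusted p = 0.0960) for Cyp51, -1.04 (SE 0.22, adjusted p = 0.0747) for Scap and 3.32 (SE 0.76, adjusted p = 0.0871) for Abca1.
Sqle gave -0.23 (SE 0.18, adjusted p = 0.634), Srebf1 -0.23 (SE 0.35, adjusted p = 0.826), Srebf2 0.28 (SE 0.23, adjusted p = 0.644) and Abcg1 0.58 (SE 0.30, adjusted p = 0.397). Without GATA2-GMP WT 3, 6 members were called, Cyp51, Scap, Mvd and Mvk lower (4.70% of all genes) and Abca1 and Soat1 higher (4.33% of all genes), and without GATA2-GMP WT 2 Abca1 alone was called (0.353% of all genes higher).

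From GMP to GATA2-GMP the 16 tested enzymes rose in wild type and 14 of them rose in Xbp1-deficient cells, while Srebf1, Srebf2, Scap and Mbtps1, of the SREBP machinery, fell in both. In wild type 28 of 31 members were called (70.5% of all genes), 21 higher (34.1% of all genes) and 7 lower (36.4% of all genes), and in Xbp1-deficient cells 27 (78.6%), 20 higher (38.6%) and 7 lower (40.0%). In Xbp1-deficient cells Mvk and Tm7sf2 were the enzymes that did not pass the test. The summed level of the 17 was 277 to 290 CPM in GMP WT and 2045 to 2498 CPM in GATA2-GMP WT. The median log2 difference of the enzymes was 2.74 in wild type and 2.32 in Xbp1-deficient cells, where that of all genes was -0.09 and -0.05. The stage comparisons share their libraries with the genotype comparisons above, and the values below are given side by side for that reason.
Scaling to library totals in place of trimmed means moved the median of all genes by -0.84 in wild type and -0.68 in Xbp1-deficient cells, and then 20.4% of genes were called higher and 55.6% lower in wild type and 26.3% and 53.7% in Xbp1-deficient cells. Under it all 16 enzymes were still above 0 in wild type and all but Mvk (-0.50) and Tm7sf2 (-0.31) in Xbp1-deficient cells. The call of Mvk, Tm7sf2 and Dhcr7 was lost in wild type and that of Dhcr7 and Soat1 in Xbp1-deficient cells. Mvk (adjusted p = 0.0167) and Mbtps2 (6.59e-04) became called lower in Xbp1-deficient cells, and Npc1 (0.0134) and Nr1h3 (0.0277) in wild type.

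**Figure D3:**
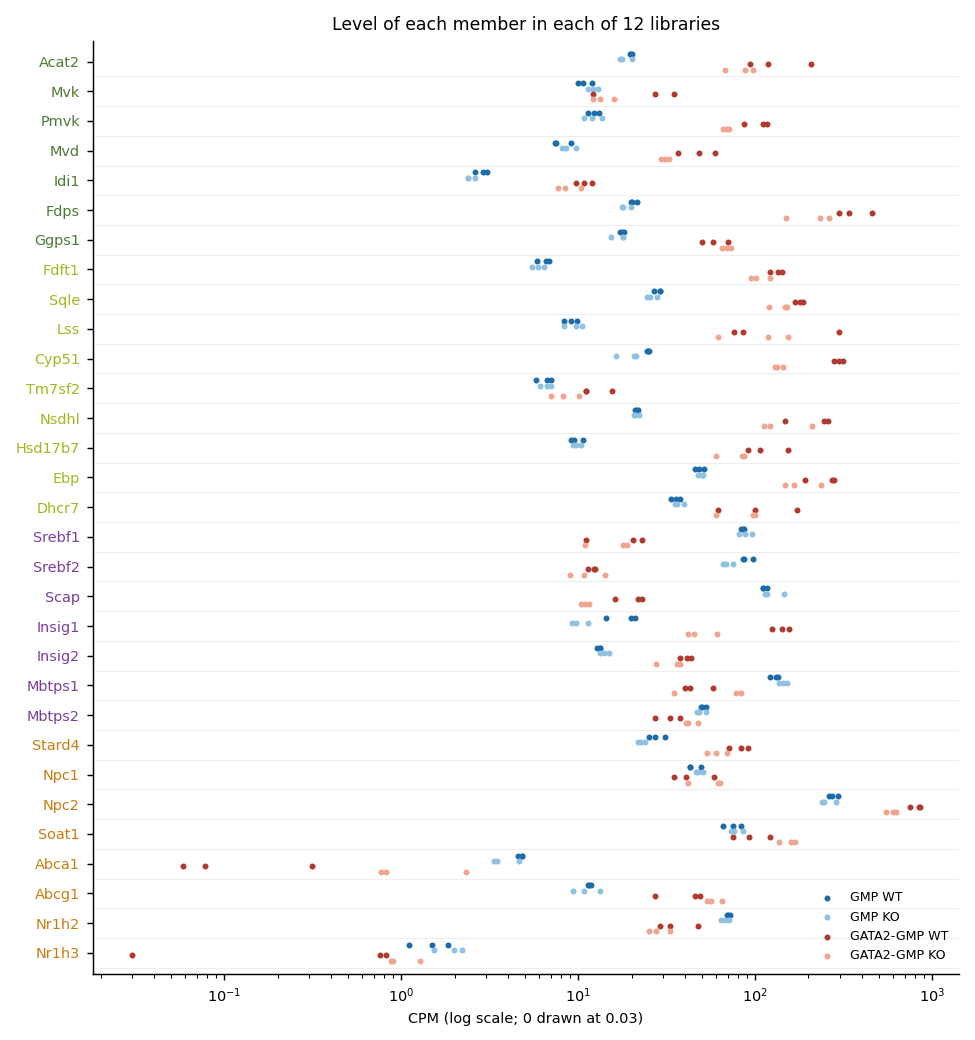
Level in CPM (log axis) of the 31 members with reads in each of the 12 libraries, 1 point per library, gene names coloured by role. The enzymes (top 16 rows) lie further right in GATA2-GMP, apart from overlaps in Mvk and Tm7sf2, and Srebf1, Srebf2, Scap, Mbtps1 and Abca1 lie further left.

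The mevalonate steps start from Acat2, the cytosolic thiolase that joins acetyl-CoA units, which stood at 19.9, 19.5 and 20.1 CPM in GMP WT, 17.6, 20 and 17.2 in GMP KO, 93.4, 118 and 206 in GATA2-GMP WT and 87.9, 97.5 and 67.5 in GATA2-GMP KO. Acat2 rose by 2.82 on the log2 scale in wild type (SE 0.30, adjusted p = 9.33e-05) and rose by 2.21 in Xbp1-deficient cells (SE 0.17, adjusted p = 4.66e-06). Its levels at the stages were far apart in every library.
Mvk is the kinase that phosphorylates mevalonate, and Pmvk is the kinase that phosphorylates the product of Mvk. Mvk stood at 11.9, 9.97 and 10.6 CPM in GMP WT, 13.0, 12.1 and 11.3 in GMP KO, 27.0, 34.8 and 12.1 in GATA2-GMP WT and 13.3, 12.1 and 15.9 in GATA2-GMP KO. Mvk rose by 1.19 on the log2 scale in wild type (SE 0.36, adjusted p = 0.0175) and differed by 0.19 in Xbp1-deficient cells (SE 0.17, adjusted p = 0.338), which did not pass the test. GATA2-GMP WT 3 was low among its group and the KO levels of the stages overlapped, and the wild-type call was lost without any of GMP WT 2, GMP WT 3, GATA2-GMP WT 1 or GATA2-GMP WT 2 (adjusted p = 0.0588, 0.0579, 0.0533 and 0.0634). Pmvk stood at 13.1, 11.3 and 12.2 CPM in GMP WT, 13.6, 12 and 10.7 in GMP KO, 85.9, 110 and 116 in GATA2-GMP WT and 65.4, 71.3 and 69.7 in GATA2-GMP KO. Pmvk rose by 3.10 on the log2 scale in wild type (SE 0.18, adjusted p = 7.11e-06) and rose by 2.51 in Xbp1-deficient cells (SE 0.15, adjusted p = 8.69e-07).
Mvd is the decarboxylase that yields isopentenyl diphosphate, and Idi1 is its isomerase. Mvd stood at 9.05, 7.38 and 7.44 CPM in GMP WT, 8.14, 9.65 and 8.51 in GMP KO, 58.9, 48.4 and 36.4 in GATA2-GMP WT and 32.6, 29.3 and 30.9 in GATA2-GMP KO. Mvd rose by 2.59 on the log2 scale in wild type (SE 0.23, adjusted p = 3.80e-05) and rose by 1.82 in Xbp1-deficient cells (SE 0.15, adjusted p = 5.61e-06). Idi1, the enzyme with the lowest CPM in GMP KO apart from Hmgcs1, stood at 3.03, 2.91 and 2.60 CPM in GMP WT, 2.39, 2.37 and 2.60 in GMP KO, 10.8, 11.9 and 9.73 in GATA2-GMP WT and 8.40, 7.68 and 10.3 in GATA2-GMP KO. Idi1 rose by 1.93 on the log2 scale in wild type (SE 0.23, adjusted p = 1.46e-04) and rose by 1.85 in Xbp1-deficient cells (SE 0.23, adjusted p = 6.46e-05). Neither enzyme overlapped between stages.
Fdps, the farnesyl diphosphate synthase, stands where the sterol and prenylation branches divide, and was the enzyme with the highest level per length of merged exons in GATA2-GMP WT. Fdps stood at 21.4, 19.9 and 20.2 CPM in GMP WT, 19.8, 17.7 and 18.0 in GMP KO, 339, 296 and 460 in GATA2-GMP WT and 150, 261 and 232 in GATA2-GMP KO. Fdps rose by 4.16 on the log2 scale in wild type (SE 0.22, adjusted p = 5.21e-06) and rose by 3.54 in Xbp1-deficient cells (SE 0.22, adjusted p = 1.50e-06). GATA2-GMP KO 1 was the lowest of the 6 cultured libraries. Ggps1, on the prenylation branch, stood at 17.2, 17.7 and 18.2 CPM in GMP WT, 15.4, 18.0 and 18.0 in GMP KO, 50.3, 70.1 and 57.8 in GATA2-GMP WT and 69.6, 65.0 and 72.8 in GATA2-GMP KO. Ggps1 rose by 1.76 on the log2 scale in wild type (SE 0.18, adjusted p = 7.26e-05) and rose by 2.02 in Xbp1-deficient cells (SE 0.14, adjusted p = 2.14e-06).

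Squalene and sterol enzymes had a median stage difference of 3.34 in wild type and 2.80 in Xbp1-deficient cells, against 2.59 and 2.02 for the mevalonate enzymes. Fdft1, the squalene synthase and the step that commits farnesyl diphosphate to sterols, stood at 6.79, 5.82 and 6.54 CPM in GMP WT, 5.5, 6.39 and 5.91 in GMP KO, 122, 135 and 141 in GATA2-GMP WT and 101, 94.9 and 122 in GATA2-GMP KO. Fdft1 rose by 4.38 on the log2 scale in wild type (SE 0.17, adjusted p = 2.10e-06) and rose by 4.16 in Xbp1-deficient cells (SE 0.17, adjusted p = 1.87e-07). Its exons share 769 bases with Ctsb on the other strand in the annotation, and whether counting used strand is not given in the sources used here.
Sqle, a rate-limiting oxygenase of the branch, stood at 28.8, 26.8 and 28.9 CPM in GMP WT, 28.0, 25.3 and 24.4 in GMP KO, 179, 168 and 186 in GATA2-GMP WT and 151, 148 and 120 in GATA2-GMP KO. Sqle rose by 2.66 on the log2 scale in wild type (SE 0.15, adjusted p = 5.35e-06) and rose by 2.44 in Xbp1-deficient cells (SE 0.15, adjusted p = 1.00e-06). Lss stood at 9.87, 9.13 and 8.34 CPM in GMP WT, 10.5, 8.34 and 9.67 in GMP KO, 75.6, 85.2 and 299 in GATA2-GMP WT and 118, 154 and 61.8 in GATA2-GMP KO. Lss rose by 4.08 on the log2 scale in wild type (SE 0.56, adjusted p = 3.45e-04) and rose by 3.56 in Xbp1-deficient cells (SE 0.32, adjusted p = 1.09e-05). The Lss levels in GATA2-GMP were high in WT 3, KO 1 and KO 2 and low in WT 1, WT 2 and KO 3, and 381 bases of its exons overlap the noncoding 4930483K19Rik.
Cyp51, with the levels given above, rose by 3.59 in wild type (SE 0.15, adjusted p = 2.59e-06) and by 2.82 in Xbp1-deficient cells (SE 0.15, adjusted p = 6.11e-07). Tm7sf2, one of the sterol reductases that act next, stood at 7.0, 6.66 and 5.75 CPM in GMP WT, 6.61, 6.09 and 6.98 in GMP KO, 15.6, 11 and 11.1 in GATA2-GMP WT and 8.22, 6.97 and 10.1 in GATA2-GMP KO. Tm7sf2 rose by 0.96 on the log2 scale in wild type (SE 0.23, adjusted p = 0.00584) and differed by 0.38 in Xbp1-deficient cells (SE 0.21, adjusted p = 0.133), which did not pass the test. It showed the smallest stage difference among the enzymes in wild type, and its exons overlap those of 1110014N23Rik.
Nsdhl and Hsd17b7 remove methyl groups from the sterol ring in 1 complex. Nsdhl stood at 21.8, 21.0 and 21.6 CPM in GMP WT, 21.9, 21.0 and 20.6 in GMP KO, 244, 257 and 147 in GATA2-GMP WT and 121, 112 and 209 in GATA2-GMP KO. Nsdhl rose by 3.34 on the log2 scale in wild type (SE 0.24, adjusted p = 1.64e-05) and rose by 2.80 in Xbp1-deficient cells (SE 0.25, adjusted p = 9.32e-06). Hsd17b7 stood at 10.6, 9.49 and 9.09 CPM in GMP WT, 10.4, 9.74 and 9.31 in GMP KO, 91.5, 106 and 154 in GATA2-GMP WT and 84.1, 86.2 and 60.1 in GATA2-GMP KO. Hsd17b7 rose by 3.60 on the log2 scale in wild type (SE 0.24, adjusted p = 1.15e-05) and rose by 2.97 in Xbp1-deficient cells (SE 0.18, adjusted p = 1.19e-06). In GATA2-GMP Nsdhl was low in WT 3, KO 1 and KO 2, the reverse of Lss.
Ebp, the sterol isomerase, stood at 48.4, 51.6 and 45.8 CPM in GMP WT, 50.4, 49.8 and 47.6 in GMP KO, 279, 272 and 192 in GATA2-GMP WT and 148, 166 and 236 in GATA2-GMP KO. Ebp rose by 2.36 on the log2 scale in wild type (SE 0.19, adjusted p = 2.61e-05) and rose by 1.90 in Xbp1-deficient cells (SE 0.19, adjusted p = 1.83e-05). Dhcr7, the reductase that ends the route through dehydrocholesterol, stood at 35.8, 33.4 and 37.8 CPM in GMP WT, 39.5, 35.2 and 35.9 in GMP KO, 61.4, 99.7 and 172 in GATA2-GMP WT and 97.6, 100 and 59.9 in GATA2-GMP KO. Dhcr7 rose by 1.65 on the log2 scale in wild type (SE 0.34, adjusted p = 0.00308) and rose by 1.23 in Xbp1-deficient cells (SE 0.20, adjusted p = 4.47e-04). Among the cultured libraries Dhcr7 was lowest in WT 1 and KO 3 and highest in WT 3.

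The genes of the SREBP factors, their escort and the site-1 protease fell at both genotypes. Srebf1 stood at 85.7, 86.4 and 83.5 CPM in GMP WT, 96.0, 80.8 and 87.5 in GMP KO, 20.3, 23.0 and 11 in GATA2-GMP WT and 17.9, 10.9 and 18.8 in GATA2-GMP KO. Srebf1 fell by 2.23 on the log2 scale in wild type (SE 0.27, adjusted p = 1.85e-04) and fell by 2.46 in Xbp1-deficient cells (SE 0.22, adjusted p = 9.10e-06). Srebf2, with the levels given above, fell by 2.89 in wild type (SE 0.16, adjusted p = 5.37e-06) and fell by 2.61 in Xbp1-deficient cells (SE 0.19, adjusted p = 2.97e-06). In GMP WT its mean was 89.6 ± 6.72 CPM and in GATA2-GMP WT 12 ± 0.507 CPM (SD, n = 3).
Scap stood at 116, 110 and 111 CPM in GMP WT, 145, 114 and 117 in GMP KO, 21.7, 22.8 and 16.2 in GATA2-GMP WT and 11.5, 10.9 and 10.4 in GATA2-GMP KO. Scap fell by 2.47 on the log2 scale in wild type (SE 0.18, adjusted p = 1.50e-05) and fell by 3.51 in Xbp1-deficient cells (SE 0.16, adjusted p = 2.52e-07). Its levels did not overlap between stages in either genotype, and 985 bases of its exons overlap 5830462I19Rik.
Mbtps1 and Mbtps2 encode the Golgi proteases that cut SREBP free. Mbtps1 stood at 131, 121 and 135 CPM in GMP WT, 152, 136 and 143 in GMP KO, 42.6, 40.1 and 57.6 in GATA2-GMP WT and 83.2, 77.7 and 34.7 in GATA2-GMP KO. Mbtps1 fell by 1.45 on the log2 scale in wild type (SE 0.18, adjusted p = 2.02e-04) and fell by 1.13 in Xbp1-deficient cells (SE 0.29, adjusted p = 0.00546). Mbtps2 stood at 49.8, 52.6 and 49.1 CPM in GMP WT, 48.2, 52.5 and 47.1 in GMP KO, 27.2, 37.6 and 33.0 in GATA2-GMP WT and 40.7, 47.7 and 41.7 in GATA2-GMP KO. Mbtps2 fell by 0.62 on the log2 scale in wild type (SE 0.17, adjusted p = 0.0120) and differed by -0.18 in Xbp1-deficient cells (SE 0.13, adjusted p = 0.252), which did not pass the test. The wild-type call of Mbtps2 was lost without GMP WT 2 (adjusted p = 0.0531), and 2867 bases of its exons overlap those of Yy2.
The INSIG genes, which hold SREBP back, rose with the enzymes. Insig1, with the levels given above, rose by 2.94 in wild type (SE 0.20, adjusted p = 1.26e-05) and by 2.3 in Xbp1-deficient cells (SE 0.19, adjusted p = 6.29e-06). Insig2, its paralog, stood at 13.2, 12.8 and 13.2 CPM in GMP WT, 15.0, 13.9 and 13.3 in GMP KO, 43.3, 37.4 and 41.3 in GATA2-GMP WT and 37.4, 27.6 and 36.0 in GATA2-GMP KO. Insig2 rose by 1.64 on the log2 scale in wild type (SE 0.16, adjusted p = 5.29e-05) and rose by 1.26 in Xbp1-deficient cells (SE 0.16, adjusted p = 9.30e-05).

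**Figure D4:**
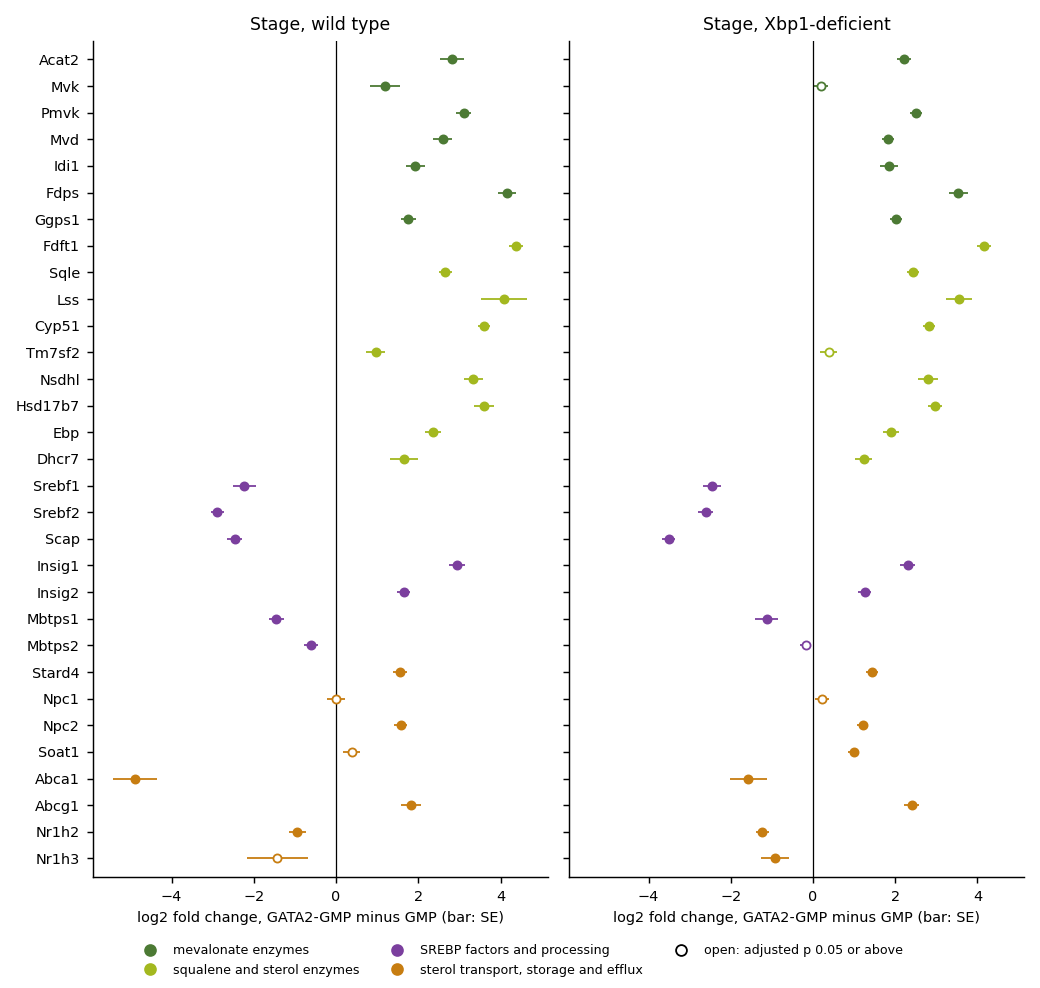
Log2 difference of GATA2-GMP over GMP for the 31 tested members (points, bars 1 SE, n = 3 against 3) in wild type (left) and Xbp1-deficient cells (right), coloured by role, filled where called. All 16 enzymes are filled and above 0 on the left, and Srebf1, Srebf2, Scap and Mbtps1 are filled and below 0 on both sides.

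Of the 8 transport, storage and efflux genes, 3 were called higher and 2 lower in wild type (34.1% and 36.4% of all genes) and 4 higher and 3 lower in Xbp1-deficient cells (38.6% and 40.0%). Stard4 rose by 1.56 in wild type (SE 0.17, adjusted p = 9.27e-05) and by 1.43 in Xbp1-deficient cells (SE 0.15, adjusted p = 2.02e-05). Npc1 and Npc2 pass cholesterol out of the lysosome, the former in its membrane and the latter in its lumen. Npc1 ranged from 34.9 to 63.3 CPM over the 12 libraries. Npc1 differed by -0.00 on the log2 scale in wild type (SE 0.22, adjusted p = 0.988), which did not pass the test, and differed by 0.22 in Xbp1-deficient cells (SE 0.18, adjusted p = 0.28), which did not pass the test. Npc2 stood at 273, 292 and 260 CPM in GMP WT, 238, 288 and 246 in GMP KO, 745, 839 and 854 in GATA2-GMP WT and 551, 622 and 604 in GATA2-GMP KO. Npc2 rose by 1.57 on the log2 scale in wild type (SE 0.16, adjusted p = 6.77e-05) and rose by 1.21 in Xbp1-deficient cells (SE 0.14, adjusted p = 5.39e-05). Npc2 had the highest level per length of merged exons of all members in GMP, and the stages of Npc1 overlapped.
Soat1 stood at 65.5, 82.7 and 74.6 CPM in GMP WT, 73.0, 84.8 and 75.4 in GMP KO, 74.7, 92.0 and 122 in GATA2-GMP WT and 167, 136 and 159 in GATA2-GMP KO. Soat1 differed by 0.38 on the log2 scale in wild type (SE 0.21, adjusted p = 0.136), which did not pass the test, and rose by 0.99 in Xbp1-deficient cells (SE 0.14, adjusted p = 1.46e-04). Its wild-type levels overlapped between stages, and without GATA2-GMP WT 1 the wild-type difference was called (adjusted p = 0.0258).
Abca1 stood at 4.78, 4.55 and 4.80 CPM in GMP WT, 4.64, 3.33 and 3.49 in GMP KO, 0.0773, 0.314 and 0.0583 in GATA2-GMP WT and 0.816, 0.768 and 2.33 in GATA2-GMP KO. Over the 3 libraries of a group that was 322 reads in GMP WT against 7 in GATA2-GMP WT, a ratio of 30.9 with a 95% counting interval of 14.8 to 77.5, and 314 in GMP KO against 57 in GATA2-GMP KO, a ratio of 3.07 (2.31 to 4.15). Abca1 fell by 4.89 on the log2 scale in wild type (SE 0.53, adjusted p = 1.00e-04) and fell by 1.57 in Xbp1-deficient cells (SE 0.44, adjusted p = 0.00985).
Abcg1 stood at 11.3, 11.8 and 11.5 CPM in GMP WT, 13.3, 9.33 and 10.7 in GMP KO, 27.1, 45.6 and 48.7 in GATA2-GMP WT and 65.3, 56.1 and 53.3 in GATA2-GMP KO. Abcg1 rose by 1.82 on the log2 scale in wild type (SE 0.25, adjusted p = 3.05e-04) and rose by 2.40 in Xbp1-deficient cells (SE 0.18, adjusted p = 3.51e-06). The exporters went in opposite directions.
Nr1h2 and Nr1h3 encode the liver X receptors that switch on both exporters. Nr1h2 stood at 69.9, 69.2 and 71.6 CPM in GMP WT, 67.1, 70.7 and 64.1 in GMP KO, 47.4, 33.1 and 29.1 in GATA2-GMP WT and 25.1, 27.4 and 33.0 in GATA2-GMP KO. Nr1h2 fell by 0.94 on the log2 scale in wild type (SE 0.20, adjusted p = 0.00380) and fell by 1.23 in Xbp1-deficient cells (SE 0.15, adjusted p = 5.59e-05). Nr1h3, the receptor more typical of macrophages and liver, was near the limit of detection at 1.49, 1.83 and 1.10 CPM in GMP WT, 2.21, 1.98 and 1.52 in GMP KO, 0, 0.753 and 0.816 in GATA2-GMP WT and 0.875, 0.896 and 1.28 in GATA2-GMP KO. Nr1h3 differed by -1.43 on the log2 scale in wild type (SE 0.74, adjusted p = 0.119), which did not pass the test, and fell by 0.93 in Xbp1-deficient cells (SE 0.34, adjusted p = 0.0310). The Nr1h3 call in Xbp1-deficient cells was lost in DESeq2 (adjusted p = 0.0735) and without each of GMP KO 1 (0.131), GMP KO 2 (0.113), GMP KO 3 (0.0507), GATA2-GMP KO 1 (0.0750) and GATA2-GMP KO 2 (0.0593).

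Other genes of the pathway were taken from 2 lists. Of 21 further sterol genes found, 20 were tested in GMP and 19 in GATA2-GMP and none was called with genotype at either stage by edgeR, while of 20 tested 8 were called higher and 7 lower with stage in wild type (34.1% and 36.4% of all genes), and of 21 tested 8 and 7 in Xbp1-deficient cells (38.6% and 40.0%). The sterol enzymes Sc4mol and Sc5d, which work beside Nsdhl and Hsd17b7, rose at both genotypes. Sc4mol went from 14.1 ± 1.18 CPM in GMP WT to 560 ± 170 in GATA2-GMP WT and from 12.7 ± 0.449 in GMP KO to 385 ± 127 in GATA2-GMP KO (SD, n = 3). Sc5d rose by 3.91 on the log2 scale in wild type (SE 0.16, adjusted p = 2.47e-06) and by 3.62 in Xbp1-deficient cells (SE 0.14, adjusted p = 1.76e-07). Apoe, the apolipoprotein that receives exported cholesterol, fell by 5.61 (SE 0.30, adjusted p = 5.04e-06) and, in Xbp1-deficient cells, fell by 5.42 (SE 0.24, adjusted p = 2.53e-07).
Of 15 fatty acid genes known as SREBP targets, 13 were tested in GMP and 15 in GATA2-GMP and none was called with genotype, and with stage 7 of 15 were called higher and 3 lower in wild type (34.1% and 36.4% of all genes) and 8 and 4 in Xbp1-deficient cells (38.6% and 40.0%). Fasn, the fatty acid synthase, went against the sterol enzymes, from 319 ± 16.7 CPM in GMP WT to 86.0 ± 12.5 CPM in GATA2-GMP WT (SD, n = 3), a fall of 1.88 on the log2 scale (SE 0.17, adjusted p = 3.79e-05). Gpam, which starts glycerolipid synthesis, fell by 3.44 in wild type (SE 0.32, adjusted p = 5.02e-05). Scd1, the stearoyl-CoA desaturase, had 3 reads in GMP WT and 252 in GATA2-GMP WT, a ratio of 125 with a 95% counting interval of 42.3 to 610. At an unadjusted p under 0.05, the genotype comparison of GMP held 2 fatty acid genes lower and, of the further sterol genes, 3 higher and 1 lower, where 6.78% of all genes were higher and 7.69% lower, and DESeq2 called none of either list. That of GATA2-GMP held 2 fatty acid genes lower and 1 further sterol gene in each direction, where 6.59% of all genes were higher and 8.31% lower, and DESeq2 called 1 gene of each list lower (2.03% of all genes).

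**Figure D5:**
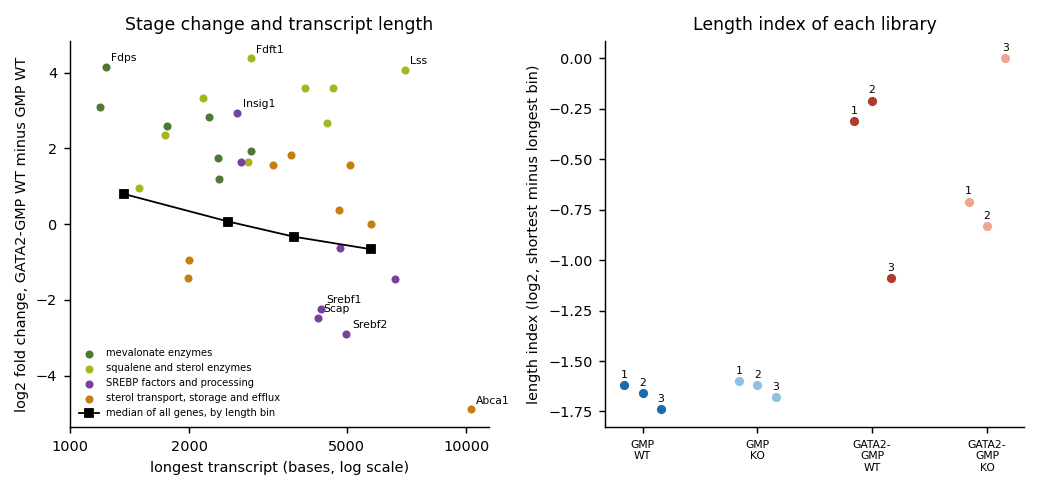
Left: log2 difference of GATA2-GMP WT over GMP WT for the 31 tested members against longest transcript (bases, log axis), with squares for the median of all genes in each of 4 length bins. Right: length index (log2) of each library, numbered by replicate. The squares go down from 0.80 to -0.66 while the enzymes stay above 0 in every bin, and GATA2-GMP WT 3 and KO 3 stand apart from the other libraries of their groups.

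Transcript length moved with the stage difference. Over 11505 genes with a length, Spearman's correlation of the wild-type difference with length was -0.28, and over the 31 members -0.35, as a description across genes that share their libraries. Of the shortest of 4 bins of genes 51.9% were called higher, and of the longest bin 18.9% were called higher and 50.2% lower. Enzymes were called higher in each bin, 5 of 5 in the shortest, 7 of 7, 1 of 1 and 3 of 3 in the longest, the last being Lss, Sqle and Hsd17b7. Srebf2, Mbtps1, Mbtps2 and Abca1 are in the longest bin as well. Srebf1 and Scap are in the next longest bin, where 40.8% of genes were called lower and 27.1% higher. The part of length in the lower levels of these genes was not tested. For the genotype difference in GATA2-GMP, Spearman's correlation with length was 0.43 over the 31 members and 0.03 over all genes with a length. In GMP it was -0.09 and -0.04, and for the interaction 0.46 and 0.05. The part of length in the genotype differences of the members was not tested either.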

How the data were processed

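The deposited tables hold whole-number counts of reads per gene for each of the 12 libraries. Reads were processed by the authors with STAR 2.3.0, SAMtools 0.1.14 and HTSeq, with the genome build mm9 and DESeq also named, per the submitters' processing notes. Their settings, including strand, are not given in the sources used here. GMP libraries were made with a TruSeq kit and GATA2-GMP libraries with the SMARTer Ultra Low Input kit first, per the labels' protocols. The 5 rows that name no gene held 55.76% to 66.53% of records and were left out. Of 27 gene names that had been turned into dates, 23 were restored and 4 left out.

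Groups were compared with edgeR 4.0.16 (filterByExpr, TMM scaling, robust quasi-likelihood fit), with Benjamini-Hochberg adjustment over every gene in the fit and calls below 0.05, on the 6 libraries of a comparison or all 12 for the interaction. The tests were run on simulated data first. The members and gene lists were chosen with earlier results of these data known. Members past the threshold, and Insig1, Srebf1, Srebf2, Hmgcs1, Sqle, Abca1 and Abcg1, were to be given per library, and of the other pathway genes at most 5 per list. Genotype values of Cyp51, Stard4, Scap, Soat1, Lss, Ggps1 and Mvk were given in addition, after they had been seen. Libraries with the same replicate number deviated together in GMP (correlations 0.318, 0.249 and 0.192) and not in the other comparisons. Alternatives were DESeq2 1.42.0, RLE scaling, library totals, no filter, a replicate block, leaving out each library, a fit over all 12 libraries and a length index as covariate, the last added after the data had been seen. No 2 libraries were alike, with at least 14460 genes unequal. Counting intervals are exact binomial at 95% and cover counting error only.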

Additional observations from a re-analysis of the deposited data

How the results depend on the processing

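In GMP, 2 members were called. The count was 4 with the replicate block, where 964 genes were called against 381 without it. With DESeq2 the count was 3 (488 genes), and with no filter 3 (460 genes). It was 0 both in the fit over all 12 libraries (17 genes) and with the length index as covariate, and 1 to 2 when 1 library was left out (209 to 398 genes). The libraries of the other comparisons did not pair by number. In GATA2-GMP, where 1 member and 44 genes were called, the block left 0 members and 3 genes, DESeq2 gave 2 and 502, no filter 2 and 294, the fit over all 12 libraries 9 and 1461, and the covariate 13 and 1561. Leaving out 1 library gave 0 to 4 members and 0 to 525 genes, the most without GATA2-GMP WT 3, and the adjusted p of Insig1 ranged from 2.92e-06 to 0.292 over its alternatives. The interaction, with 0 members and 11 genes, gave 3 and 738 with DESeq2, 0 and 17 with RLE scaling, 0 and 40 with no filter, and 0 to 6 members and 0 to 1179 genes with 1 library left out. The cause of these changes was not tested. The total stage counts of members and of genes, both directions together, stayed within 1.5 times of the reported ones under each alternative. By direction, library totals moved genes called in wild type from 4176 higher and 4462 lower to 2501 and 6816.

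Direction turned for some differences that had not passed the test. In GMP the genotype difference of Srebf1 lay between -0.03 and 0.11 and that of Abcg1 between -0.25 and 0.08 as libraries were left out. In GATA2-GMP Srebf1 lay between -0.45 and 0.02, Srebf2 between -0.27 and 0.06, Dhcr7 between -0.66 and 0.10 and Lss between -0.78 and 0.47, and scaling to library totals gave 0.00 for Srebf1 and 0.12 for Srebf2. The wild-type stage difference of Npc1 was 0.03 with DESeq2, 0.06 with RLE scaling and -0.16 to 0.19 with 1 library left out. Library totals gave -0.45 for Soat1 in wild type, and -0.50 for Mvk, -0.31 for Tm7sf2 and -0.45 for Npc1 in Xbp1-deficient cells. Of these only Mvk was then called lower (adjusted p = 0.0167).

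Depth limits Abca1 and Nr1h3 in GATA2-GMP, where a library held few reads of them. With 3 libraries a group, and stage tied to kit and culture, differences smaller than the spread between cultured libraries could not be called.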
